A study of Mus musculus with 23 samples.

Results

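Skeletal muscle of PAX4 knockout (PAX4 KO) mice was compared with that of wild-type (WT) mice, in both cases 10 d after denervation, in which a muscle loses its nerve and then wastes. The comparison held 6 of the 23 samples of the series, 3 libraries of PAX4 KO denervated muscle and 3 of WT denervated muscle, chosen by their labels. A further 3 libraries of innervated WT muscle stood in the same count table of 54446 genes. They are given as values beside the results, and they also entered the main fit, from which the spread of each gene was estimated. After the filter on low counts 16146 genes were tested. The other samples of the series are not analysed here. PAX4 KO libraries had total counts of 31223080, 21716216 and 37558199, denervated WT libraries 38347204, 36529572 and 36704419, and innervated WT libraries 24619026, 42821396 and 35003785. The labels do not say how PAX4 was deleted, in which cells, from when, or which muscle was taken. Nor do they tie libraries to separate animals, so p-values measure only the spread from library to library, part of which may be technical.

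PAX4 is a paired box transcription factor known for its part in the formation of insulin-producing cells of the pancreas, and the title of the series sets it among the factors that act on genes of the proteasome. The proteasome is built from a 20S core particle that cuts proteins and a 19S regulatory particle that binds and unfolds those tagged with ubiquitin. In denervated muscle, fibres lose contractile protein through the proteasome and through autophagy, the ubiquitin ligase genes Trim63 and Fbxo32 are switched on, and genes of the neuromuscular junction are expressed along the whole fibre. Protein balance is also watched by stress pathways. The integrated stress response raises amino acid supply through the factor ATF4, and the unfolded protein response raises the chaperones of the endoplasmic reticulum (ER), the compartment where secreted proteins fold.

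The 6 denervated libraries did not fall into the labelled groups by their largest source of variation. The first principal component of the 500 most variable genes held 45.5% of the variance. PAX4 KO library 2 stood at 35.7 on it, and PAX4 KO libraries 1 and 3 at -1.07 and 2.89. Denervated WT library 1 lay beside PAX4 KO libraries 1 and 3, at 2.62, and apart from WT libraries 2 and 3 at -23.4 and -16.7. The innervated WT libraries disagreed too. On the first component of all 9 libraries, innervated WT library 2 stood at 22.6 and innervated WT libraries 1 and 3 at 54.6 and 55.1. Where a value moved much without PAX4 KO library 2, WT library 1 or another library, the value without it is given too. Markers of muscle fibres such as actin and creatine kinase were abundant in all libraries. On the CPM scale, that is read counts scaled to a fixed library total with TMM factors, 11 such genes summed to 58575 to 78586 CPM in PAX4 KO libraries and 73165 to 86794 CPM in denervated WT libraries.

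Pax4 itself (chromosome 6, 28442334 to 28449353, GRCm38) did not check the labels, since it had 0 counts in all 9 libraries. A count of 0 allows up to 0.0733 to 0.109 CPM per PAX4 KO library, 0.0722 to 0.0839 CPM per denervated WT library and 0.0822 to 0.148 CPM per innervated WT library, by the limit of 3 counts and for counting error only. Of a list of 12 pancreatic endocrine genes, Pax4 included, 11 were too low to be tested.

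In PAX4 KO muscle 3 genes rose and 0 fell by edgeR's quasi-likelihood test, that is 0.0186% and 0% of the 16146 genes tested, at a Benjamini-Hochberg adjusted p under 0.05. Esr1, which encodes estrogen receptor alpha, rose 25.8-fold, C1qtnf3, which encodes a secreted protein of the C1q and tumour necrosis factor related family, rose 7.67-fold, and Ndrg4, a member of the NDRG gene family studied mainly in brain and heart, rose 2.5-fold. An unadjusted p under 0.05 was reached by 1308 genes on the higher side (8.1%) and 781 on the lower side (4.84%). DESeq2 called 140 genes higher (0.867%) and 73 lower (0.452%), limma-voom 5 and 0 (0.031% and 0%), and the authors' deposited table lists 107 higher and 53 lower among 15253 genes (0.702% and 0.347%). Of the 160 genes that the authors' deposited table calls, 146 were tested here and 145 had the same sign. Among genes it does not call, some signs differ. Its log2 fold changes are 0.34 for Psmb5, 0.15 for Atp5l and 2.11 for mt-Co2, all negative here, and -0.37 for Slc7a11, positive here. With WT library 1 left out the edgeR counts were 16 higher and 10 lower (0.0975% and 0.0609%), and with PAX4 KO library 1 left out 7 and 2 (0.0424% and 0.0121%). They were 2 and 0 without PAX4 KO library 2 (0.0122%) or 3 (0.0121%) and in a fit of the 6 denervated libraries alone (0.0126%), and 1 and 0 without WT library 2 or 3 (0.00605% each). The share of genes with an unadjusted p under 0.05 moved as well. On the higher side it was 9.19%, 4.38% and 7.76% without PAX4 KO library 1, 2 and 3, and 11.5%, 3.78% and 5.03% without WT library 1, 2 and 3. On the lower side the same fits gave 4.75%, 2.11% and 5.37%, and 7.51%, 1.85% and 3.45%. The PAX4 KO and denervated WT libraries did not overlap for 9.69% of genes tested on the higher side and 7.23% on the lower side. Since the number of calls varied with the tool and the libraries, groups of genes are described by their values. A count within a group is to be read against these shares.

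Esr1 (chromosome 10, 4611593 to 5005614, GRCm38) had 493, 437 and 566 CPM in PAX4 KO libraries 1 to 3, against 20.1, 19.5 and 18.4 CPM in denervated WT libraries 1 to 3. All 3 PAX4 KO libraries lay far above every WT library, and innervated WT muscle, with 28.6, 24.9 and 32 CPM, stood close to denervated WT muscle. The log2 fold change was 4.69 ± 0.15 (SE, adjusted p = 2.71e-07), and the call held with each of the 6 libraries left out in turn (adjusted p of 5.25e-07 to 1.75e-05). The genes on either side of it on chromosome 10 did not share the difference: Armt1 had 24.2, 21.1 and 24.6 CPM in PAX4 KO libraries and 28.9, 33.2 and 27.4 CPM in denervated WT libraries (log2 fold change -0.35, adjusted p = 0.304), and the other 4 tested neighbours lay between -0.12 and 0.24. The deposited counts are per gene and do not show which exons the reads cover, so reads of the chromosomal gene and of any construct that carries Esr1 sequence cannot be told apart.

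C1qtnf3 had 8.91, 14.7 and 8.33 CPM in PAX4 KO libraries, against 1.71, 1.15 and 1.28 CPM in denervated WT libraries, with innervated WT libraries at 0.887, 1.4 and 1.29 CPM. The groups did not overlap, and the log2 fold change was 2.94 ± 0.28 (adjusted p = 0.00605). Ndrg4 had 8.88, 8.81 and 7.84 CPM in PAX4 KO libraries, against 3.64, 3.38 and 3.19 CPM in denervated WT libraries and 3.69, 3.34 and 2.86 CPM in innervated WT libraries. Its 3 PAX4 KO values lay close to each other and above both WT groups (log2 fold change 1.32 ± 0.16, adjusted p = 0.0304). The C1qtnf3 call was lost without WT library 2 or 3 (adjusted p = 0.0888 and 0.0847). The Ndrg4 call held without WT library 1 and was lost without any of the other 5 libraries (adjusted p of 0.0782 to 0.327). It was also lost in the fit of the 6 denervated libraries alone (adjusted p = 0.0743) and when tested against a log2 fold change of at least 1.

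**Figure D1:**
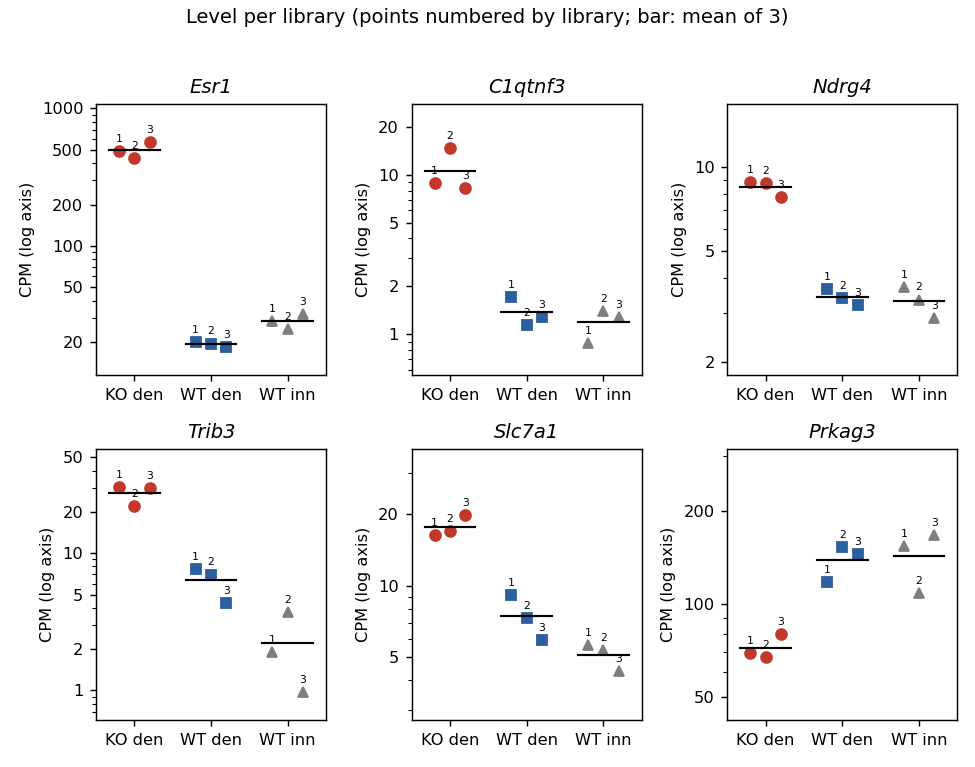
CPM of 6 genes (one panel each, log axis, scaled separately) in PAX4 KO denervated, WT denervated and WT innervated muscle; points are libraries 1 to 3 and the bar is their mean. Esr1, C1qtnf3, Ndrg4, Trib3 and Slc7a1 stood higher in every PAX4 KO library than in any denervated WT library, and Prkag3 stood lower.

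Genes of the estrogen response were looked at because of Esr1. Of the 18 listed 14 were tested, Esr1 included, and their median log2 fold change was 0.29 beside 0.01 over all genes, and ran from 0.17 without WT library 2 to 0.40 without WT library 1. Besides Esr1, 0 were called by edgeR and 0 by DESeq2, and 4 had an unadjusted p under 0.05, all on the higher side (2 without PAX4 KO library 3 or WT library 3). Ramp3, a partner of adrenomedullin receptors, had 1.49, 1.93 and 2.93 CPM in PAX4 KO libraries and 1.4, 0.671 and 1.02 CPM in denervated WT libraries, with no overlap (log2 fold change 1.04, adjusted p = 0.3). Igfbp4, a binding protein of insulin-like growth factors, had 143, 170.2 and 173 CPM in PAX4 KO libraries and 121, 112 and 103 CPM in denervated WT libraries (0.53, adjusted p = 0.321), also with no overlap. Greb1, a cofactor of the estrogen receptor, was low, at 1.24, 2.4 and 0.66 CPM in PAX4 KO libraries and 0.65, 0.727 and 0.733 CPM in denervated WT libraries, and its groups overlapped (1.01, adjusted p = 0.36, and 0.43 without PAX4 KO library 2). Nrip1, a corepressor that binds the receptor, had 34.6, 35.3 and 33.6 CPM in PAX4 KO libraries and 38.4, 39.8 and 38.5 CPM in denervated WT libraries (-0.17, adjusted p = 0.596).

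A total of 315 genes averaged 8 CPM or more, had an unadjusted p under 0.01 and did not overlap between the groups, 241 of them higher and 74 lower in PAX4 KO. The 10 with the highest log2 fold changes were Esr1, Trib3, the collagen chains Col8a2, Col1a1 and Col1a2, elastin (Eln), Ltbp2, Cthrc1, Spon1 and C1qtnf6, described by group. The 10 lowest differed in kind. Prkag3, the regulatory subunit of AMP-activated kinase found in fast glycolytic fibres, had 69.3, 67.5 and 79.7 CPM in PAX4 KO libraries and 117, 153 and 145 CPM in denervated WT libraries (-0.94 ± 0.17, adjusted p = 0.178). Pvalb, the calcium buffer parvalbumin of fast fibres, had 2386, 1591 and 2666 CPM in PAX4 KO libraries and 3639, 4935 and 3793 CPM in denervated WT libraries (-0.90 ± 0.24, adjusted p = 0.276). PAX4 KO library 2 held the lowest value of both genes.

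Ddit4l, an inhibitor of mTOR signalling, had the lowest log2 fold change of the 10, -1.24, with 94, 43.3 and 77.6 CPM in PAX4 KO libraries and 153, 234 and 119.8 CPM in denervated WT libraries (adjusted p = 0.264). The tetraspanin gene Tspan8 (-1.05), the myosin light chain kinase family gene Mylk4 (-0.94), the smoothelin-like gene Smtnl2 (-0.91) and Tmem233 (-0.95) had adjusted p of 0.262 to 0.283. In innervated WT muscle Ddit4l, Tspan8, Mylk4, Smtnl2, Tmem233 and Pvalb all had higher means than in denervated WT muscle. Lpin2, a phosphatidate phosphatase, had 24.3, 28.6 and 24 CPM in PAX4 KO libraries and 28.8, 69.3 and 55.4 CPM in denervated WT libraries. Slc16a9, a transporter of the monocarboxylate family, had 10, 9.64 and 9.36 CPM in PAX4 KO libraries and 11.4, 23.8 and 20.9 CPM in denervated WT libraries. Hpgd, which degrades prostaglandins, had 6.4, 6.95 and 6.38 CPM in PAX4 KO libraries and 7.97, 15.1 and 14.8 CPM in denervated WT libraries. In these 3 genes WT library 1 lay close to the PAX4 KO libraries, and of the edgeR fits those without it called them (adjusted p = 0.0448, 0.0336 and 0.0448, and 0.276, 0.264 and 0.264 with all libraries). DESeq2 called all 3 with all libraries (adjusted p = 0.0247, 0.0122 and 0.0201).

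Genes of the integrated stress response stood higher in PAX4 KO in the main, with values that separated the groups for 8 of 16 measured members. All 8 were higher, beside 9.69% of all genes tested that did not overlap on the higher side and 7.23% on the lower side. The median log2 fold change of the 16 was 0.37, and the per-library medians, on log2(CPM + 0.5) relative to the mean of denervated WT, were 0.33, 0.35 and 0.38 in PAX4 KO libraries and 0.04, 0.02 and -0.07 in denervated WT libraries. Trib3, a pseudokinase induced by amino acid shortage and ER stress, had 30.4, 21.9 and 30.1 CPM in PAX4 KO libraries, against 7.73, 6.99 and 4.37 CPM in denervated WT libraries and 1.92, 3.73 and 0.976 CPM in innervated WT libraries. The 3 PAX4 KO values lay above all others, with a log2 fold change of 2.11 ± 0.36 (adjusted p = 0.153 by edgeR, 0.0484 by edgeR without innervated WT library 2, and 0.0354 by limma-voom). Fgf21, a hormone secreted by stressed muscle and liver, had 1.61, 1.93 and 4.77 CPM in PAX4 KO libraries and 0.409, 0.364 and 0.393 CPM in denervated WT libraries (2.83 ± 0.63, adjusted p = 0.244). Its level was low and the groups did not overlap.

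Gdf15, which encodes another stress hormone, had 9.27, 4.84 and 6.45 CPM in PAX4 KO libraries and 2.05, 1.17 and 2.04 CPM in denervated WT libraries (1.96 ± 0.46, adjusted p = 0.264), again with no overlap. Atf4, the factor that carries the response, differed less, with 160.0, 166 and 182 CPM in PAX4 KO libraries and 140.4, 127 and 115 CPM in denervated WT libraries (0.41, adjusted p = 0.283). Ddit3, which encodes the factor CHOP, had 32.3, 23.3 and 37.6 CPM in PAX4 KO libraries and 23.5, 16.7 and 14.9 CPM in denervated WT libraries. Its PAX4 KO library 2 overlapped WT library 1 (0.76, adjusted p = 0.283). Other members went the other way or overlapped. Chac1, an enzyme that degrades glutathione, had 44.9, 23.6 and 42.5 CPM in PAX4 KO libraries and 39.7, 58 and 46.1 CPM in denervated WT libraries (-0.37, adjusted p = 0.61). Cebpb, a factor that partners ATF4, had 11.6, 12.8 and 12.7 CPM in PAX4 KO libraries and 12.1, 16.5 and 18.7 CPM in denervated WT libraries (-0.35, adjusted p = 0.376). Of the 16, edgeR called 0 in either direction and DESeq2 5 higher. An unadjusted p under 0.05 was reached by 9 on the higher side and by 1, Cebpb, on the lower side, where leaving out any library other than WT library 1 gave 0.

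Genes for the synthesis and transport of amino acids also stood higher, with a median log2 fold change of 0.71 over 16 measured members. The groups did not overlap for 11 of them, all higher in PAX4 KO, beside 9.69% of all genes tested on the higher side. Per-library medians were 0.59, 0.66 and 0.55 in PAX4 KO libraries and 0.04, -0.13 and 0.06 in denervated WT libraries. Slc7a1, a carrier of arginine and lysine, had 16.4, 17.1 and 19.9 CPM in PAX4 KO libraries, against 9.17, 7.33 and 5.94 CPM in denervated WT libraries and 5.62, 5.37 and 4.36 CPM in innervated WT libraries (1.25 ± 0.17, adjusted p = 0.0969). Aldh18a1, which starts proline synthesis from glutamate, had 20.6, 19.1 and 18.1 CPM in PAX4 KO libraries and 10.9, 7.72 and 7.88 CPM in denervated WT libraries (1.13 ± 0.18, adjusted p = 0.138). Asns, which makes asparagine, had 27.3, 24.6 and 26.4 CPM in PAX4 KO libraries and 16.5, 9.26 and 8.03 CPM in denervated WT libraries, with WT library 1 nearest to the PAX4 KO values (1.21 ± 0.27, adjusted p = 0.241). The values of all 3 genes kept the groups apart. Each passed edgeR's test without WT library 1 (adjusted p = 0.0448 each), and limma-voom called Slc7a1 with all libraries (adjusted p = 0.0354). With all libraries edgeR called 0 of the 16, 10 had an unadjusted p under 0.05, all higher, and DESeq2 called 4 higher.

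The aminoacyl-tRNA synthetases, which load amino acids onto tRNAs and include several ATF4 targets, were not shifted in the same way. Their median log2 fold change was 0.04 over 20 genes and 4 did not overlap, all higher, beside 9.69% of all genes tested. Wars had 55.8, 47.1 and 60.8 CPM in PAX4 KO libraries and 43.4, 45.1 and 44.9 CPM in denervated WT libraries (0.30, adjusted p = 0.328), and Cars had 39.7, 42.1 and 44.2 CPM in PAX4 KO libraries and 31.7, 38.9 and 35.1 CPM in denervated WT libraries (0.26, adjusted p = 0.377). Neither edgeR nor DESeq2 called any of the 20 (0 each). On the higher side 4 had an unadjusted p under 0.05, and the number was 0 without PAX4 KO library 3 or WT library 1 and 1 without PAX4 KO library 1 or WT library 3. On the lower side it was 0, and 3 without WT library 1. The median ran from -0.02 without WT library 1 to 0.08 without PAX4 KO library 2.

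Promoters of 2 of these genes are shown because ATF4 and its C/EBP partners bind a composite element in many stress genes. The motif searched was TGATGNAA, on both strands of the 250 bases before each gene's start, in promoter sequences from RefSeq (GRCm38.p6). It was present in 3.45% of all 32851 promoters. In the integrated stress response 5 of 19 promoters held it (26.3%), and in amino acid supply 3 of 18 (16.7%). Counted by gene, these were 5 of 16 genes (Fgf21, Chac1, Atf3, Nupr1 and Vldlr) and 3 of 14 matched genes (Asns, Slc7a11 and Pycr1). A match is a description of letters and not a measured binding site. Shown is the member of each list with a match that had the smallest unadjusted p. The promoters of Fgf21 (chr7:45615491-45615740, minus strand) and Asns (chr6:7693210-7693459, minus strand) read as follows, 5′ to 3′ on the gene's strand, with the motif on either strand in capitals.
Fgf21: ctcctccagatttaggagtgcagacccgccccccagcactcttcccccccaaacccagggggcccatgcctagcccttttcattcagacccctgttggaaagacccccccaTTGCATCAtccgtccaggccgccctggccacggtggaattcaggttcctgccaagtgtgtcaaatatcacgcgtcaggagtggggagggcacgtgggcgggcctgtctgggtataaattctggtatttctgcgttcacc
Asns: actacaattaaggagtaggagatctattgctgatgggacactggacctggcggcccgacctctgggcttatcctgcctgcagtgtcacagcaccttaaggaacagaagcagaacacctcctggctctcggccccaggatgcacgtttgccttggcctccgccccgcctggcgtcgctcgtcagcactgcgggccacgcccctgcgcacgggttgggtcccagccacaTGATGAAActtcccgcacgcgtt

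Chaperones and folding enzymes of the ER stood higher in PAX4 KO as a group. The groups did not overlap for 18 of 20 measured members, all 18 higher, beside 9.69% of all genes tested. The median log2 fold change was 0.48. Per-library medians were 0.46, 0.40 and 0.53 in PAX4 KO libraries, 0.10, -0.10 and -0.01 in denervated WT libraries and -0.43, -0.41 and -0.51 in innervated WT libraries. Hspa5, the main chaperone BiP of the ER, had 739.9, 547 and 671 CPM in PAX4 KO libraries, against 425, 294 and 342 CPM in denervated WT libraries (0.88 ± 0.16, adjusted p = 0.185). Hyou1, a chaperone that works with BiP, had 76.6, 63.9 and 84.5 CPM in PAX4 KO libraries and 47, 42 and 48.8 CPM in denervated WT libraries (0.71 ± 0.12, adjusted p = 0.153). In both genes the lowest PAX4 KO value was above the highest WT value. Hsp90b1, the HSP90 protein of the ER, had 256, 241 and 252 CPM in PAX4 KO libraries and 182, 145 and 147 CPM in denervated WT libraries (0.66 ± 0.12, adjusted p = 0.169). The disulfide isomerase gene Pdia4 had 39.9, 45.6 and 49.6 CPM in PAX4 KO libraries and 31.9, 23.3 and 24.6 CPM in denervated WT libraries (0.76, adjusted p = 0.185). All 4 PAX4 KO ranges lay above those of both WT groups.

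Xbp1, a transcription factor of the unfolded protein response whose activity rests on splicing of its mRNA, did not separate, with 102, 101 and 117 CPM in PAX4 KO libraries and 101, 120.0 and 107 CPM in denervated WT libraries (-0.04, adjusted p = 0.899). Splicing is not visible in counts per gene. Of the 20 ER genes edgeR called 0 and DESeq2 6, all higher, and 19 had an unadjusted p under 0.05, all higher. Hsp90b1 and Pdia4 passed edgeR's test without WT library 1 (adjusted p = 0.0459 and 0.0448). Without PAX4 KO library 2 the median was 0.46 and without WT library 1 it was 0.55, so neither library moved it far.

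The ER stress response element, searched as CCAAT and CCACG with 9 bases of any kind between them on both strands of the same 250 bases, was present in 0.113% of all promoters, 37 of 32851, and in 7 of the 17 ER folding genes with a promoter in the table. These were Hspa5, Hsp90b1, Calr, Canx, Creld2, Dnajc3 and Pdia6. Shown are the promoters of Hsp90b1 (chr10:86705445-86705694, minus strand), with 2 matches, and of Hspa5 (chr2:34771840-34772089, plus strand), with 1. They are the members with a match that had the smallest unadjusted p, and both genes separated the groups. Capitals mark the matches.
Hsp90b1: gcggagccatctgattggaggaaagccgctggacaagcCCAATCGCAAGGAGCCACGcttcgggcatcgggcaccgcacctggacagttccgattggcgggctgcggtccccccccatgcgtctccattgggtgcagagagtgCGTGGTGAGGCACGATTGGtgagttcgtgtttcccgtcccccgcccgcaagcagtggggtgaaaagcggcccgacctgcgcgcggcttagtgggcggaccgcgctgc
Hspa5: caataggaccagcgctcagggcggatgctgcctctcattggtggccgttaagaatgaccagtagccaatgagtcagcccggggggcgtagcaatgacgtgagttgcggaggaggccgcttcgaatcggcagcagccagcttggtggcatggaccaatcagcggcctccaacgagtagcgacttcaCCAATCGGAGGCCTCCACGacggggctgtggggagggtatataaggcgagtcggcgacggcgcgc

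Genes of the interferon response, which type I interferons induce through STAT and IRF factors, were all positive in PAX4 KO. All 20 measured members had a positive log2 fold change, beside 51% of all genes tested. The median was 0.76, and the groups did not overlap for 14 of them, beside 9.69% of all genes tested on the higher side. Per-library medians were 0.59, 0.55 and 0.73 in PAX4 KO libraries, 0.09, -0.09 and 0.00 in denervated WT libraries and 0.08, 0.16 and 0.20 in innervated WT libraries. Oasl2, of the oligoadenylate synthetase family, had 8.06, 6.84 and 7.99 CPM in PAX4 KO libraries and 3.92, 3.97 and 3.87 CPM in denervated WT libraries (0.96 ± 0.15, adjusted p = 0.138). Irf7, the factor that amplifies the response, had 10.4, 7.86 and 15.1 CPM in PAX4 KO libraries and 4.72, 4.0 and 5.26 CPM in denervated WT libraries (1.26 ± 0.22, adjusted p = 0.169), with PAX4 KO library 3 the highest. Levels of these genes were low, and even the lowest PAX4 KO value of each lay above all 3 denervated WT values.

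The neighbours Ifit1 and Ifit3 on chromosome 19, antiviral RNA-binding proteins, showed the same order of groups. Ifit1 had 5.38, 3.46 and 4.69 CPM in PAX4 KO libraries and 1.83, 2.52 and 2.25 CPM in denervated WT libraries (1.04, adjusted p = 0.235). Ifit3 had 6.17, 4.18 and 5.84 CPM in PAX4 KO libraries and 2.38, 2.49 and 2.85 CPM in denervated WT libraries (1.07, adjusted p = 0.185). The genes of this family are close in sequence, so reads may be shared among them. Of the 20 interferon genes edgeR called 0 and DESeq2 6 higher, and 14 had an unadjusted p under 0.05, all higher. Without PAX4 KO library 2 the number was 17 and without WT library 1 it was 15, where 4.38% and 11.5% of all genes reached that level on the higher side.

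Interferon-stimulated elements were searched as GAAA and GAAA with 2 bases of any kind between them, on both strands. They were present in 2.98% of all promoters and in 7 of the 16 promoters of interferon genes (43.8%). Counted by gene, these were 7 of the 14 interferon genes with a promoter in the table (Ifit1, Ifit3, Isg15, Bst2, Oas1a, Rsad2 and Stat2). The promoters of Ifit3 (chr19:34583279-34583528, plus strand) and Ifit1 (chr19:34640639-34640888, plus strand) are shown as the 2 members with a match that had the smallest unadjusted p. Each carried 2 matches, on the strand opposite to the gene and in capitals here.
Ifit3: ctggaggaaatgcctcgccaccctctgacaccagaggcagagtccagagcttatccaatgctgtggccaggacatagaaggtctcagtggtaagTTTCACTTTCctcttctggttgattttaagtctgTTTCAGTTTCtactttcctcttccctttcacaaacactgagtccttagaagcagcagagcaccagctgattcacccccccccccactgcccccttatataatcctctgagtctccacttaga
Ifit1: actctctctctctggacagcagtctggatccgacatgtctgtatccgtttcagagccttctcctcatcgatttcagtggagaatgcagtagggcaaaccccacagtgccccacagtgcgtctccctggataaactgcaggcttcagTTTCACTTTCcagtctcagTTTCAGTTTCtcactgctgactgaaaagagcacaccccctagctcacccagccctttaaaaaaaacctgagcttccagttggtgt

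Genes of antigen presentation leaned in the same direction with more spread. The median log2 fold change was 0.48 over 13 genes, and 0.23 without PAX4 KO library 2. Of the 13, 5 did not overlap, all higher, beside 9.69% of all genes tested. H2-D1, a class I heavy chain, had 166, 209 and 252 CPM in PAX4 KO libraries and 125, 118 and 135 CPM in denervated WT libraries (0.73, adjusted p = 0.264), and its partner B2m had 204, 163 and 195 CPM in PAX4 KO libraries and 132, 141 and 131 CPM in denervated WT libraries (0.48, adjusted p = 0.3). Class I genes are close copies, so reads may be shared among them. The class II gene H2-Eb1, found on antigen-presenting cells, had 97.7, 131 and 90.7 CPM in PAX4 KO libraries and 158, 94.9 and 122 CPM in denervated WT libraries (-0.23, adjusted p = 0.745, and -0.03 without WT library 1). H2-Eb1 was the only negative member of the 13, and 12 were positive, the class II genes H2-Aa and H2-Ab1 among them. By edgeR 0 of the 13 were called, 4 had an unadjusted p under 0.05, all higher, and DESeq2 called 1 higher. Over 7 genes of the immunoproteasome and of proteasome activators the median was 0.11, from 0.02 without WT library 1 to 0.14 without WT library 2. On the higher side 2 were free of overlap and on the lower side 1, beside 9.69% and 7.23% of all genes tested. Of these 7, edgeR and DESeq2 called 0, and 1 had an unadjusted p under 0.05. The first 2 by p on the higher side were inducible subunits. Psmb8 had 7.44, 9.32 and 9.63 CPM in PAX4 KO libraries and 5.73, 5.79 and 5.0 CPM in denervated WT libraries (0.68, adjusted p = 0.3). Psmb9 had 6.65, 6.4 and 6.96 CPM in PAX4 KO libraries and 4.53, 4.59 and 5.44 CPM in denervated WT libraries (0.46, adjusted p = 0.5).

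**Figure D2:**
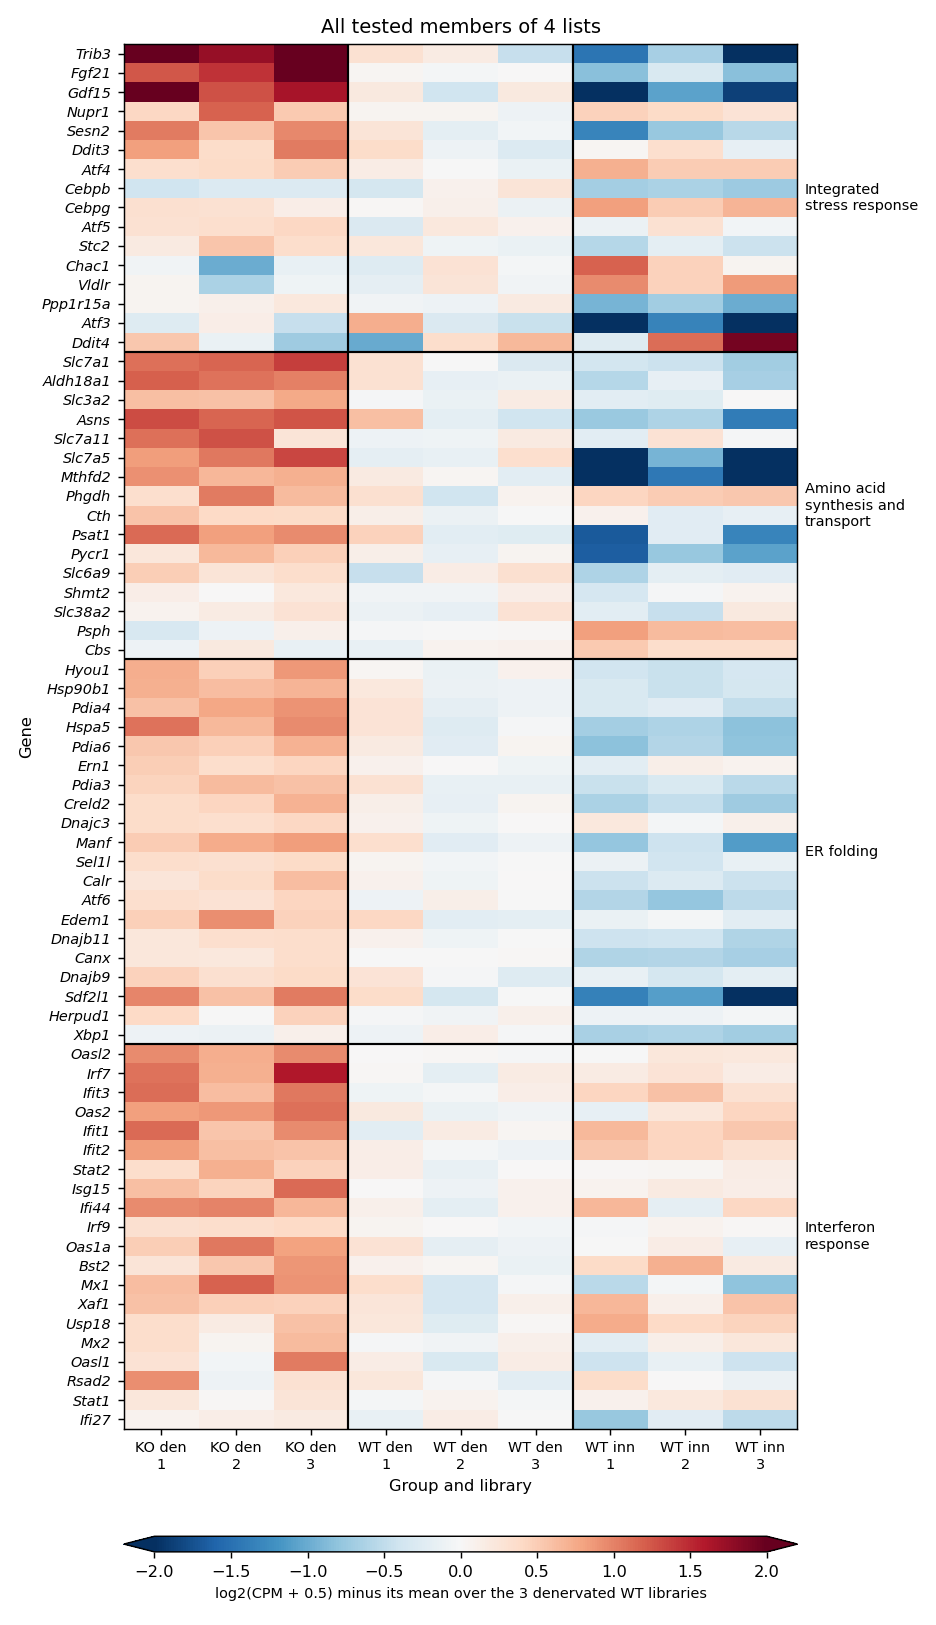
Level of every tested member of 4 lists (rows, ordered within a list by unadjusted p) in 9 libraries (columns; PAX4 KO denervated, then WT denervated, then WT innervated), as log2(CPM + 0.5) minus its mean over the 3 denervated WT libraries; colours end at -2 and 2. Most rows are red across all 3 PAX4 KO columns. Chac1, Cebpb, Psph and Xbp1 are among the rows that are not. In the ER folding block innervated WT muscle is mostly below denervated WT muscle.

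Collagens and other matrix genes stood higher in PAX4 KO, and PAX4 KO library 2 stood far above the other 2 PAX4 KO libraries in most of the collagens. The 17 listed collagen genes had a median of 1.07 on the log2 fold change scale, and all 17 were positive. Of these 14 did not overlap, beside 9.69% of all genes tested on the higher side. Per-library medians were 0.59, 1.84 and 0.57 in PAX4 KO libraries and 0.39, -0.39 and -0.03 in denervated WT libraries, so PAX4 KO libraries 1 and 3 lay close above WT library 1. Without PAX4 KO library 2 the median was 0.52 and without WT library 1 it was 1.24. Col1a1 and Col1a2 encode the chains of type I collagen, the main fibre of the matrix. Col1a1 had 423, 1983 and 579.8 CPM in PAX4 KO libraries and 349.5, 198 and 259 CPM in denervated WT libraries (1.89 ± 0.56, adjusted p = 0.29, and 0.90 without PAX4 KO library 2). Col1a2 had 553, 2562 and 598 CPM in PAX4 KO libraries and 432, 277 and 304 CPM in denervated WT libraries (1.87, adjusted p = 0.283, and 0.77 without that library). Both groups of values were apart, with WT library 1 the highest WT library in each.

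The type V chains Col5a1 and Col5a2, which set the width of collagen fibrils, led the list by p. Col5a1 had 78, 206 and 90.6 CPM in PAX4 KO libraries and 54.7, 30.8 and 39.9 CPM in denervated WT libraries (1.58, adjusted p = 0.253, and 1.01 without PAX4 KO library 2). Col5a2 had 184, 450.5 and 184 CPM in PAX4 KO libraries and 127, 70.4 and 88.2 CPM in denervated WT libraries (1.52, adjusted p = 0.264, and 0.95 without it). Col12a1, a collagen that binds to fibril surfaces, was the most uneven, with 22.5, 385 and 27.4 CPM in PAX4 KO libraries and 32.6, 14.6 and 18.3 CPM in denervated WT libraries. Its log2 fold change was 2.73 with all libraries and 0.20 without PAX4 KO library 2, and neither value passed the test (adjusted p = 0.344 and 0.973). Col8a2, a short-chain collagen, had 9.33, 46.9 and 10.3 CPM in PAX4 KO libraries and 5.46, 3.27 and 4.84 CPM in denervated WT libraries (2.28, adjusted p = 0.283, and 1.1 without PAX4 KO library 2). Col8a2 is not in the list of 17 and is given for its place among the 10 highest log2 fold changes. Of the 17 listed collagens edgeR called 0, 16 had an unadjusted p under 0.05, all higher, and DESeq2 called 2 higher.

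Other matrix genes, 22 in number, had a median log2 fold change of 0.97, all positive. Of these 15 did not overlap, beside 9.69% of all genes tested on the higher side. Eln, which encodes elastin, had 56.8, 104 and 57 CPM in PAX4 KO libraries and 29.6, 17.4 and 23.5 CPM in denervated WT libraries (1.62 ± 0.25, adjusted p = 0.138, and 0.0497 without WT library 1). Thbs4, a thrombospondin of tendon and muscle matrix, had 269, 322 and 357 CPM in PAX4 KO libraries and 158, 123 and 95.6 CPM in denervated WT libraries (1.33 ± 0.28, adjusted p = 0.235). In Thbs4 PAX4 KO library 2 was not the highest, and the 3 PAX4 KO values lay above all WT values. The highest log2 fold change of the 22 was 1.81, of Thbs2, and Ltbp2 and Cthrc1 are not in this list. They, Spon1 and C1qtnf6 are given here because they ranked among the 10 highest log2 fold changes named above. Ltbp2, which encodes a latent TGF-beta binding protein, had 17.3, 16.2 and 18 CPM in PAX4 KO libraries and 7.34, 1.9 and 3.27 CPM in denervated WT libraries (2.04, adjusted p = 0.293), also without a high PAX4 KO library 2. Cthrc1, a secreted protein with a collagen-like repeat, had 8.6, 21.2 and 9.95 CPM in PAX4 KO libraries and 5.25, 1.93 and 2.56 CPM in denervated WT libraries (2.02, adjusted p = 0.264). The secreted proteins Spon1 (1.72, adjusted p = 0.292) and C1qtnf6 (1.60, adjusted p = 0.235) stood at 0.64 and 1.03 without PAX4 KO library 2.

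Of the 22 listed matrix genes edgeR called 0 and DESeq2 6 higher, and 16 had an unadjusted p under 0.05, all higher. Without PAX4 KO library 2 the number was 10 and the median 0.56. Markers of tendon cells, which also make these collagens, were highest in that library. Their 7 genes summed to 332, 576 and 455 CPM in PAX4 KO libraries, against 232, 219 and 184 CPM in denervated WT libraries (exact two-sided permutation test, p = 0.1, the smallest that 3 against 3 allow). Most of that sum was Thbs4, which is also a matrix gene above, and the other 6 genes summed to 62.9, 254 and 98.2 CPM in PAX4 KO libraries and 73.8, 96.6 and 88.7 CPM in denervated WT libraries, which overlapped (exact p = 0.7). Fmod, a proteoglycan of tendon, had 19.3, 152 and 20.5 CPM in PAX4 KO libraries and 29.3, 32.9 and 21.8 CPM in denervated WT libraries, and the median of the 7 was 0.72 with all libraries and -0.49 without PAX4 KO library 2. The part of tendon tissue in the matrix values was not tested, and in bulk tissue more cells of a type and more RNA per cell cannot be told apart.

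Markers of fibroadipogenic progenitors, the resident cells that make much of the muscle matrix, summed to 1394, 1617 and 1413 CPM over 13 genes in PAX4 KO libraries and 1256, 1236 and 1194 CPM in denervated WT libraries (exact p = 0.1). The groups were apart, and the median log2 fold change of the 13 was 0.18 (0.47 without WT library 1 and 0.29 without PAX4 KO library 1). Mfap5, a microfibril protein, had 79.4, 83.1 and 100.3 CPM in PAX4 KO libraries and 55.2, 31.6 and 36.4 CPM in denervated WT libraries (1.09, adjusted p = 0.24). Ly6a, the surface antigen Sca-1, had 94, 83.5 and 116 CPM in PAX4 KO libraries and 75.2, 64.6 and 68.6 CPM in denervated WT libraries (0.49, adjusted p = 0.276).

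**Figure D3:**
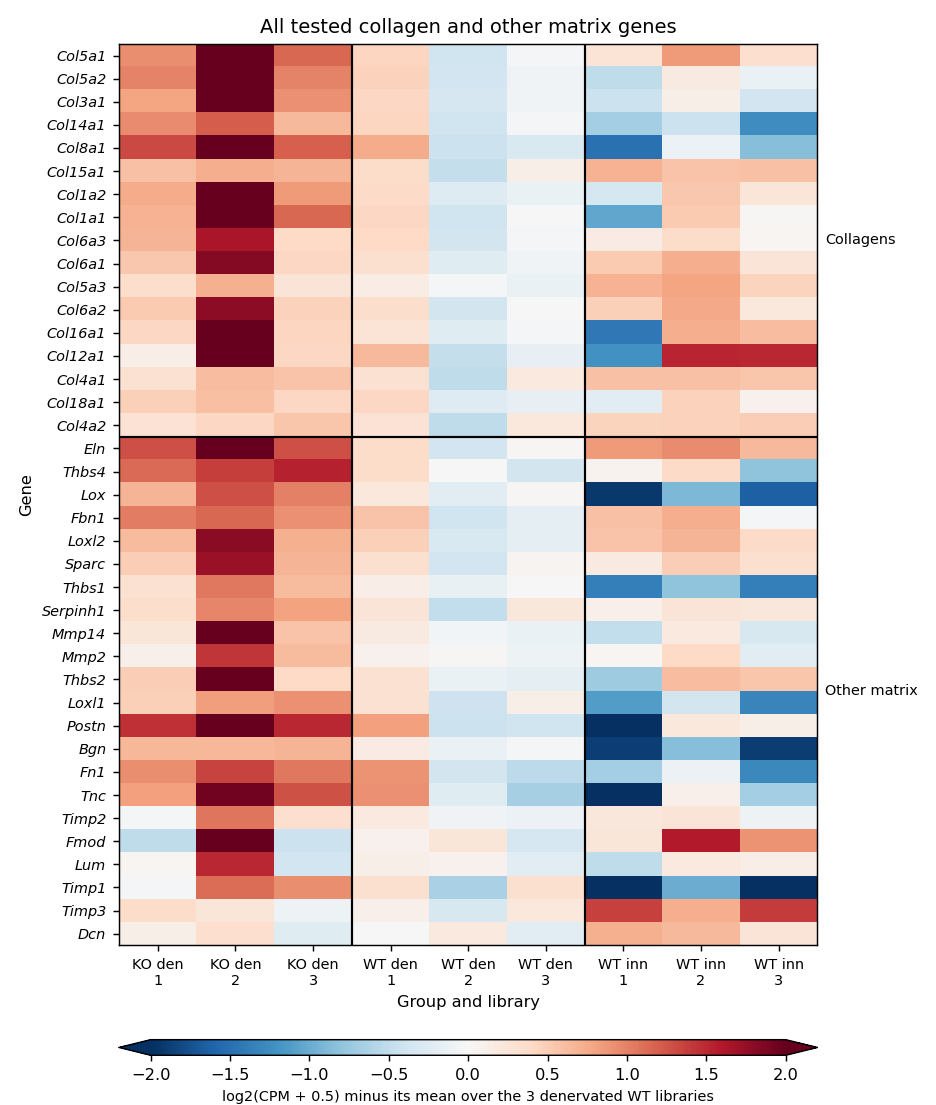
Level of every tested gene of the collagen list and of the other matrix list (rows) in 9 libraries (columns). Columns are PAX4 KO denervated, then WT denervated, then WT innervated. Values are log2(CPM + 0.5) minus its mean over the 3 denervated WT libraries, and colours end at -2 and 2. The column of PAX4 KO library 2 is the darkest red in most collagen rows, while Eln, Thbs4 and Fbn1 are red in all 3 PAX4 KO columns.

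Macrophage markers were positive for 13 of 13 genes, at a median of 0.88 (log2 fold change), and here WT library 1 lay near the PAX4 KO libraries. The 13 genes summed to 789.5, 1389 and 989.9 CPM in PAX4 KO libraries and 885, 438 and 446 CPM in denervated WT libraries, so the groups overlapped (exact two-sided permutation test, p = 0.2). The complement gene C1qa had 70, 107 and 98.5 CPM in PAX4 KO libraries and 60, 39.5 and 44.5 CPM in denervated WT libraries (0.94, adjusted p = 0.315). The Fc receptor gene Fcgr1 had 3.24, 5.49 and 8.65 CPM in PAX4 KO libraries and 3.44, 2.52 and 2.41 CPM in denervated WT libraries (1.06, adjusted p = 0.315, and 0.64 without PAX4 KO library 3). The calls by edgeR and by DESeq2 were 0 of 13. The number with an unadjusted p under 0.05 was 5, all higher, and ran from 0 without WT library 2 to 12 without WT library 1, 1 without WT library 3, 2 without PAX4 KO library 2, 3 without PAX4 KO library 3 and 8 without PAX4 KO library 1.

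Cell cycle genes behaved likewise, with a median of 1.03 over 15 genes. Of these 2 did not overlap, both higher, beside 9.69% of all genes tested. Per-library medians were 0.35, 1.65 and 0.41 in PAX4 KO libraries and 0.67, -0.25 and -0.35 in denervated WT libraries. Tyms, an enzyme of thymidine synthesis, had 2.93, 4.22 and 3.4 CPM in PAX4 KO libraries and 2.5, 1.54 and 1.73 CPM in denervated WT libraries (0.86, adjusted p = 0.283). Mcm5, a subunit of the replicative helicase, had 3.24, 4.91 and 4.35 CPM in PAX4 KO libraries and 3.27, 2.18 and 2.02 CPM in denervated WT libraries (0.74, adjusted p = 0.312). The median was 0.60 without PAX4 KO library 2 and 1.82 without WT library 1. Neither tool called any of the 15 (0 each), and 6 had an unadjusted p under 0.05, all higher (1 without PAX4 KO library 2 or WT library 3, 2 without WT library 2 and 12 without WT library 1).

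Neutrophil markers were low, and 5 of 9 were tested. S100a9 had 4.2, 1.82 and 9.7 CPM in PAX4 KO libraries and 0.77, 1.34 and 0.968 CPM in denervated WT libraries (2.36 ± 0.51, adjusted p = 0.24, and 1.56 without PAX4 KO library 3), and Csf3r, the receptor of granulocyte colony-stimulating factor, had 4.4, 5.35 and 5.4 CPM in PAX4 KO libraries and 3.64, 2.52 and 1.94 CPM in denervated WT libraries (0.90, adjusted p = 0.283). Neither pair of groups overlapped. S100a8, the partner of S100a9, had 39.1, 15.7 and 38.4 CPM in PAX4 KO libraries and 17.8, 128 and 46.1 CPM in denervated WT libraries, with WT library 2 far above the rest (-1.03, adjusted p = 0.478, and -0.04 without that library). Of the 5, edgeR called 0 and DESeq2 1 higher, and 3 had an unadjusted p under 0.05, all higher (2 higher and 1 lower without WT library 1). Summed neutrophil markers were 50.6, 45.4 and 62 CPM in PAX4 KO libraries and 24.8, 135 and 51.3 CPM in denervated WT libraries (exact two-sided permutation test, p = 0.8).

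Marker sums of other cell types overlapped between the groups. Endothelial markers summed to 863, 672 and 719 CPM in PAX4 KO libraries and 763, 608 and 787 CPM in denervated WT libraries (exact p = 0.8). Schwann cell markers summed to 49 to 67.1 CPM in PAX4 KO libraries and 36.1 to 54.4 CPM in denervated WT libraries (exact p = 0.3), and markers of smooth muscle and pericytes to 464 to 747 CPM in PAX4 KO libraries and 589 to 706 CPM in denervated WT libraries (exact p = 0.5). Lymphocyte markers were near the floor, at 5.57 to 8.41 CPM in PAX4 KO libraries and 6.88 to 9.92 CPM in denervated WT libraries (exact p = 0.3).

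The proteasome, which the series is about, stood slightly lower in PAX4 KO, and no member passed the test. Of 41 measured genes of the core, the regulatory particle and its assembly factors, 40 had a negative log2 fold change, beside 49% of all genes. The median was -0.17. For the 20S core it ran from -0.28 without WT library 1 to -0.14 without PAX4 KO library 2. For the 19S particle it ran from -0.26 without WT library 1 to -0.12 without PAX4 KO library 2. Of the 41 genes 4 did not overlap on the lower side and 1 on the higher side, beside 7.23% and 9.69% of all genes tested. Per-library medians of the 19S particle were -0.21, -0.33 and -0.10 in PAX4 KO libraries, -0.14, 0.11 and 0.03 in denervated WT libraries and -0.49, -0.41 and -0.60 in innervated WT libraries. WT library 1 lay inside the range of the PAX4 KO libraries, and all denervated libraries lay above the innervated ones. The 20S core gave -0.19, -0.34 and -0.05 in PAX4 KO libraries and -0.14, 0.10 and 0.03 in denervated WT libraries.

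Psmc2, an ATPase of the 19S base, had 171, 169.9 and 184 CPM in PAX4 KO libraries, against 179, 214 and 202 CPM in denervated WT libraries and 150.1, 136 and 131 CPM in innervated WT libraries (-0.18 ± 0.11, adjusted p = 0.503). Among 19S genes Psmd6, of the lid, had 129.7, 112 and 139.8 CPM in PAX4 KO libraries and 147, 174 and 171 CPM in denervated WT libraries (-0.37 ± 0.12, adjusted p = 0.312). The base ATPase gene Psmc3 had 252, 218 and 279.5 CPM in PAX4 KO libraries and 269, 363 and 359 CPM in denervated WT libraries (-0.40 ± 0.15, adjusted p = 0.328). Psmd6 separated the groups, while PAX4 KO library 3 overlapped WT library 1 in Psmc3. In the core, the alpha ring genes Psma3 and Psma2 had log2 fold changes of -0.26 ± 0.12 and -0.21 ± 0.11 (adjusted p = 0.407 and 0.433). The assembly factor Pomp stood at -0.21 and Psmd5, an assembly chaperone of the 19S base, at 0.11 (adjusted p = 0.485 and 0.619).

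Of the 41 proteasome genes edgeR and DESeq2 called 0. On the lower side 3 genes, all of the 19S particle, had an unadjusted p under 0.05, against 4.84% of all genes. For the 19S particle the number was 0 without PAX4 KO library 2, 1 without WT library 2 or 3, 5 without PAX4 KO library 3 and 8 without WT library 1. For the core it was 2 without PAX4 KO library 3 and 3 without WT library 1. Vcp, which encodes the ATPase p97 that extracts ubiquitinated proteins, had 466, 433 and 478 CPM in PAX4 KO libraries and 502, 554 and 499.9 CPM in denervated WT libraries (-0.18, adjusted p = 0.526). Psme4, an activator of the core, had 196, 158 and 213 CPM in PAX4 KO libraries and 233, 269.5 and 223 CPM in denervated WT libraries (-0.35, adjusted p = 0.432). Nrf1, an activator of genes for mitochondrial proteins that the series studies beside PAX4, had 11.6, 9.93 and 11.5 CPM in PAX4 KO libraries and 11.1, 10.5 and 14.2 CPM in denervated WT libraries (-0.12, adjusted p = 0.76).

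Among ubiquitin ligases of muscle atrophy the denervated WT libraries disagreed with each other. Trim63, which encodes MuRF1, a ligase for myosin heavy chain, had 307, 303 and 242 CPM in PAX4 KO libraries, against 255, 630.2 and 607 CPM in denervated WT libraries and 329, 248 and 333 CPM in innervated WT libraries. WT library 1 lay among the PAX4 KO libraries and the innervated ones, and WT libraries 2 and 3 were far higher. The log2 fold change was -0.81 ± 0.29 (adjusted p = 0.323), and -1.13 without WT library 1, where the call passed (adjusted p = 0.0473). Fbxo32, which encodes atrogin-1, had 503, 477 and 405 CPM in PAX4 KO libraries and 416, 767 and 676 CPM in denervated WT libraries (-0.43 ± 0.22, adjusted p = 0.441, from -0.65 without WT library 1 to -0.24 without WT library 2), with the same order of libraries. Nedd4, a ligase of the HECT family, had 576, 511 and 571 CPM in PAX4 KO libraries and 565, 649.6 and 596 CPM in denervated WT libraries (-0.13, adjusted p = 0.66).

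The p53 ligase gene Mdm2 had 44.3, 61.8 and 54.5 CPM in PAX4 KO libraries and 60, 80.1 and 63.9 CPM in denervated WT libraries (-0.35, adjusted p = 0.373), and Cblb, a ligase for receptor signalling, had 16.2, 19.1 and 14.5 CPM in PAX4 KO libraries and 16.6, 12.9 and 13.8 CPM in denervated WT libraries (0.20, adjusted p = 0.545). Over 16 ligases the median was -0.10, from -0.18 without PAX4 KO library 3 to -0.05 without PAX4 KO library 2, and 0 were free of overlap. Calls by edgeR and DESeq2 were 0 of 16, and 2 had an unadjusted p under 0.05 on the lower side (4 without WT library 1, 1 without PAX4 KO library 1 or WT library 3, and 0 without PAX4 KO library 3 or WT library 2).

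Denervation-responsive and junction genes showed the same split of the WT group. Gadd45a, which denervation induces in muscle, had 284, 285 and 243 CPM in PAX4 KO libraries, against 257, 657 and 589 CPM in denervated WT libraries and 16, 67.8 and 19 CPM in innervated WT libraries (-0.89 ± 0.50, adjusted p = 0.464). Cdkn1a, the cell cycle inhibitor p21, had 252, 259 and 317 CPM in PAX4 KO libraries and 199, 486 and 491 CPM in denervated WT libraries (-0.51 ± 0.32, adjusted p = 0.508, and -0.31 without WT library 3). Hdac4, the deacetylase that relays denervation to junction genes, had 86.1, 95.4 and 81 CPM in PAX4 KO libraries and 92.6, 169 and 147 CPM in denervated WT libraries (-0.64 ± 0.19, adjusted p = 0.292). WT library 1 lay within the PAX4 KO range in Gadd45a and Hdac4 and below it in Cdkn1a, while WT libraries 2 and 3 lay above that range in all 3 genes. Without WT library 1 Hdac4 passed the test (-0.85, adjusted p = 0.0494), and Gadd45a and Cdkn1a did not (adjusted p = 0.229 and 0.118).

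Myod1, a factor of muscle cell identity, had 41.6, 53.3 and 86.4 CPM in PAX4 KO libraries and 76.1, 101 and 142 CPM in denervated WT libraries (-0.81 ± 0.28, adjusted p = 0.315). On the higher side Colq, the collagen tail of junctional acetylcholinesterase, had 8.06, 8.22 and 7.04 CPM in PAX4 KO libraries and 6.6, 3.3 and 4.84 CPM in denervated WT libraries (0.66, adjusted p = 0.315), with no overlap. Dok7, an activator of the receptor kinase MuSK, had 24, 25 and 49.8 CPM in PAX4 KO libraries and 24.3, 20.4 and 28.9 CPM in denervated WT libraries (0.43, adjusted p = 0.498), a difference set by PAX4 KO library 3. Over 24 genes the median was -0.25. It was -0.42 without WT library 1, -0.16 without PAX4 KO library 2, -0.12 without WT library 2 and -0.10 without WT library 3. Calls by edgeR and DESeq2 were 0 of 24. On the lower side 3 had an unadjusted p under 0.05 (6 without WT library 1 and 1 without PAX4 KO library 1 or WT library 3), and on the higher side 1 (2 without PAX4 KO library 1 or 3 or WT library 1).

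**Figure D4:**
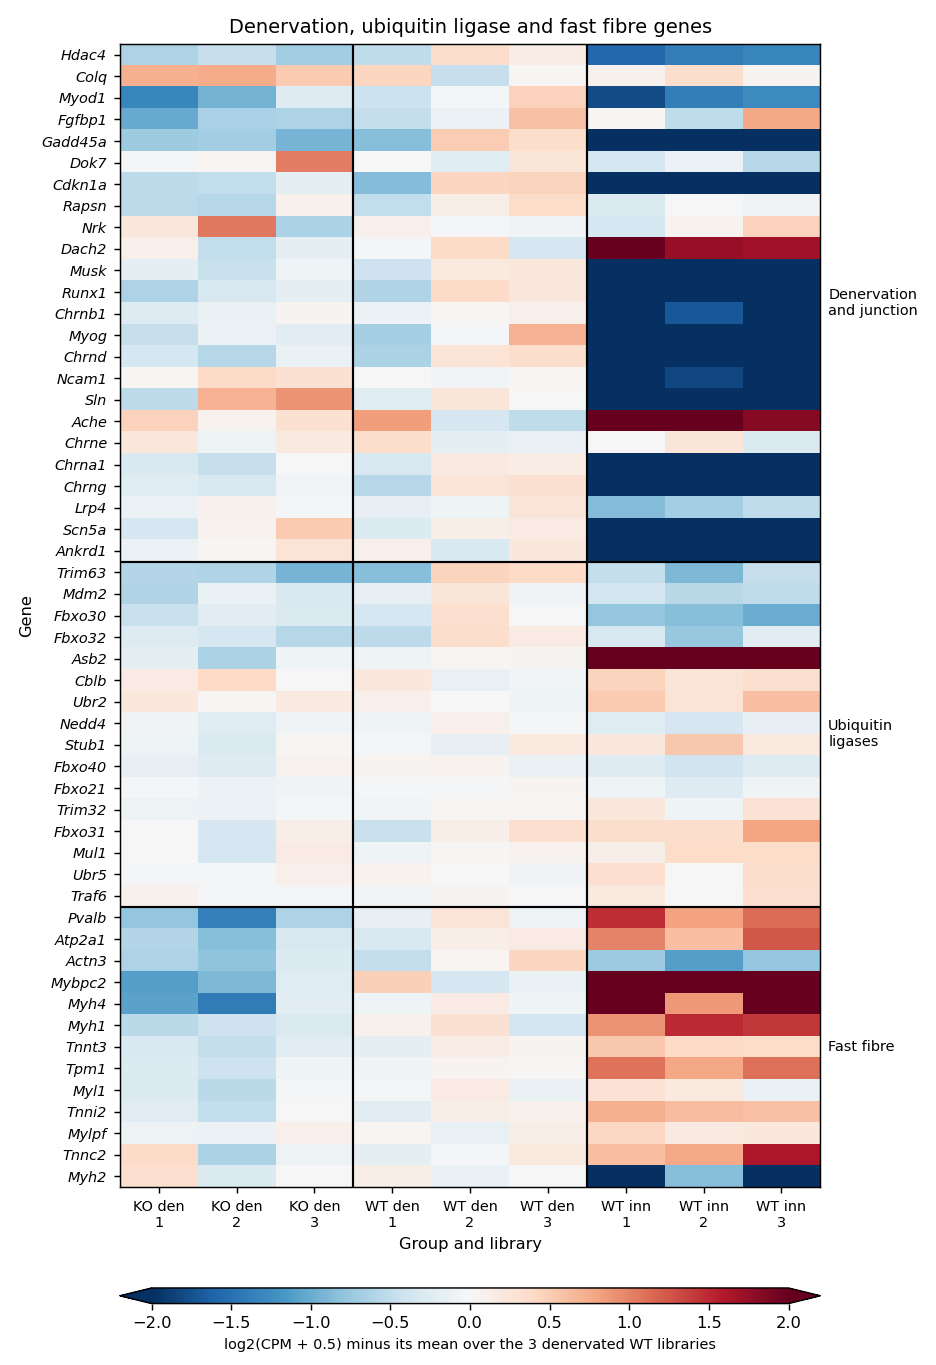
Level of every tested gene of 3 lists (rows) in 9 libraries (columns; PAX4 KO denervated, then WT denervated, then WT innervated), as log2(CPM + 0.5) minus its mean over the 3 denervated WT libraries; colours end at -2 and 2. In the rows of Hdac4, Gadd45a, Cdkn1a and Trim63 the column of denervated WT library 1 has the blue of the PAX4 KO columns, and fast fibre rows such as Pvalb are blue in all 3 PAX4 KO columns.

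Contractile genes of fast fibres stood lower in PAX4 KO. The median log2 fold change was -0.34 over 13 genes, and 5 did not overlap, all lower, beside 7.23% of all genes tested. Myh4, the myosin heavy chain of the fastest fibres, had 3192, 2546 and 5787 CPM in PAX4 KO libraries, against 6343, 7524 and 6359 CPM in denervated WT libraries and 29086, 12241 and 30785 CPM in innervated WT libraries (-0.81 ± 0.37, adjusted p = 0.395, and -1.23 without PAX4 KO library 3). Atp2a1, the calcium pump of fast fibres, had 5904, 4931 and 7144 CPM in PAX4 KO libraries and 7205, 9808 and 9992 CPM in denervated WT libraries (-0.59 ± 0.23, adjusted p = 0.347). Neither gene overlapped between the groups. Slow fibre genes had a median of 0.28 over 11 genes, with 2 that did not overlap, both higher, beside 9.69% of all genes tested. Of the 11, 8 were positive and 3 negative, with Tnnt1 lowest at -0.27. Summed over the list, levels were 3178, 2616 and 3153 CPM in PAX4 KO libraries. In denervated WT libraries the sums were 3236, 3409 and 2972 CPM, so the groups overlapped. Myl2, a light chain of slow myosin, had 4.28, 12.8 and 2.79 CPM in PAX4 KO libraries and 1.85, 0.615 and 1.62 CPM in denervated WT libraries (2.26, adjusted p = 0.299, and 1.36 without PAX4 KO library 2). The slow tropomyosin gene Tpm3 had 42.4, 56.9 and 52.3 CPM in PAX4 KO libraries and 44.4, 33.7 and 31.9 CPM in denervated WT libraries (0.46, adjusted p = 0.312). Myl2 kept the groups apart and Tpm3 did not.

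Of the 13 fast and the 11 slow fibre genes edgeR called 0. DESeq2 called 1 fast fibre gene lower and 0 slow fibre genes. An unadjusted p under 0.05 was reached by 4 fast fibre genes on the lower side (1 without PAX4 KO library 1 or 2 and 2 without WT library 2), and by 2 slow fibre genes on the higher side (0 without PAX4 KO library 2 and 1 without WT library 2).

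Energy metabolism leaned to lower values, most of all in PAX4 KO library 2. Transcripts encoded on mitochondrial DNA took 17.4 ± 2.62% of all counts in PAX4 KO libraries and 21 ± 2.47% in denervated WT libraries (SD, n = 3 each; exact two-sided permutation test, p = 0.2), beside 29 ± 0.442% in innervated WT libraries. All 13 tested mitochondrially encoded genes were negative, at a median of -0.44 (log2 fold change). Of these 7 did not overlap, beside 7.23% of all genes tested on the lower side. The complex I subunit gene mt-Nd6 had 1736, 1225 and 1632 CPM in PAX4 KO libraries and 2649, 2713 and 1932 CPM in denervated WT libraries (-0.67 ± 0.19, adjusted p = 0.283), and mt-Atp6, of the ATP synthase, had 12784, 8785 and 11737 CPM in PAX4 KO libraries and 16942, 19204 and 12899.5 CPM in denervated WT libraries (-0.56 ± 0.21, adjusted p = 0.344). PAX4 KO library 2 held the lowest value of both. The gene mt-Nd6 lies on the opposite strand to its neighbours, and the counting is not stated to use strand, so reads of the strands cannot be told apart.

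Nuclear genes of the respiratory chain were negative for 69 of 69, with a median of -0.22. Of these 20 did not overlap, beside 7.23% of all genes tested on the lower side. The cytochrome oxidase subunit gene Cox7a1, of the heart and muscle form, had 145, 114 and 134 CPM in PAX4 KO libraries and 185, 200.4 and 189.9 CPM in denervated WT libraries (-0.55 ± 0.16, adjusted p = 0.283). Uqcrfs1, the iron-sulfur protein of complex III, had 299, 239 and 301 CPM in PAX4 KO libraries and 333, 393 and 347 CPM in denervated WT libraries (-0.35, adjusted p = 0.347). The median was -0.12 without PAX4 KO library 2. Mitochondrial ribosome genes had a median of -0.20 over 76 genes, and 25 did not overlap, all lower, beside the same 7.23%. Mrpl16 and Mrps30, of the large and the small subunit by name, stood at -0.38 ± 0.10 and -0.32 ± 0.11 (adjusted p = 0.264 and 0.313).

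Enzymes of the TCA cycle had a median of -0.21 over 19 genes, from -0.32 without PAX4 KO library 1 to -0.10 without PAX4 KO library 2. Of these 5 did not overlap, all lower, beside 7.23% of all genes tested. The succinyl-CoA ligase subunit genes Suclg1 and Sucla2 stood at -0.42 ± 0.14 and -0.34 ± 0.13 (adjusted p = 0.306 and 0.344). Fatty acid oxidation genes had a median of -0.27 over 18 genes, and -0.17 without PAX4 KO library 2. Of the 18, 8 did not overlap, all lower, beside the same 7.23%. Decr1, which handles unsaturated fatty acids, had 92, 65.6 and 81.7 CPM in PAX4 KO libraries and 109, 109 and 103 CPM in denervated WT libraries (-0.42 ± 0.13, adjusted p = 0.3), and the carnitine carrier gene Slc25a20 stood at -0.29 ± 0.12 (adjusted p = 0.357). Lpl, the lipase that releases fatty acids from lipoproteins, was the exception with 402, 306 and 251 CPM in PAX4 KO libraries and 223, 186 and 272 CPM in denervated WT libraries (0.49, adjusted p = 0.376, and 0.29 without PAX4 KO library 1). Its groups overlapped at PAX4 KO library 3.

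Glycolysis and glycogen genes had a median of -0.22 over 17 genes, and -0.10 without PAX4 KO library 2. Of the 17, 6 did not overlap, all lower, beside 7.23% of all genes tested. Gpd1, which links glycolysis to glycerol lipids, had 41.2, 31.4 and 44 CPM in PAX4 KO libraries, against 90.3, 67.9 and 57.9 CPM in denervated WT libraries and 513, 379 and 488 CPM in innervated WT libraries (-0.89 ± 0.20, adjusted p = 0.24). Phkg1, the catalytic subunit of muscle phosphorylase kinase, had 85.9, 57.1 and 79.2 CPM in PAX4 KO libraries and 117, 112 and 108 CPM in denervated WT libraries (-0.60 ± 0.18, adjusted p = 0.293). In both genes the 3 PAX4 KO values lay below all WT values of either kind.

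In these 6 metabolic lists edgeR called 0 genes. DESeq2 called 2 glycolysis genes, 1 mitochondrially encoded, 1 respiratory chain and 1 mitochondrial ribosome gene, all lower, and 0 of the other 2 lists. On the lower side an unadjusted p under 0.05 was reached by 7 of 13 mitochondrially encoded, 5 of 69 respiratory chain, 12 of 76 mitochondrial ribosome, 4 of 19 TCA cycle, 6 of 18 fatty acid oxidation and 6 of 17 glycolysis genes. Without PAX4 KO library 2 these numbers were 1, 1, 4, 1, 1 and 2, where 2.11% of all genes reached that level on the lower side, and without WT library 2 they were 1, 1, 5, 1, 1 and 3, where 1.85% did. In the same order they were 9, 5, 11, 6, 9 and 3 without PAX4 KO library 1, where 4.75% of all genes did. Without PAX4 KO library 3 they were 4, 9, 21, 4, 6 and 6, beside 5.37% of all genes. Without WT library 1 they were 3, 8, 18, 5, 6 and 5, beside 7.51%. Without WT library 3 they were 6, 3, 6, 2, 2 and 4, beside 3.45%. Markers of muscle fibres moved with these values and summed to 68866 ± 10017 CPM in PAX4 KO libraries and 82029.7 ± 7684 CPM in denervated WT libraries, lowest in PAX4 KO library 2 (SD, n = 3 each; exact permutation test, p = 0.2). The part of fibre content in these values was not tested.

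**Figure D5:**
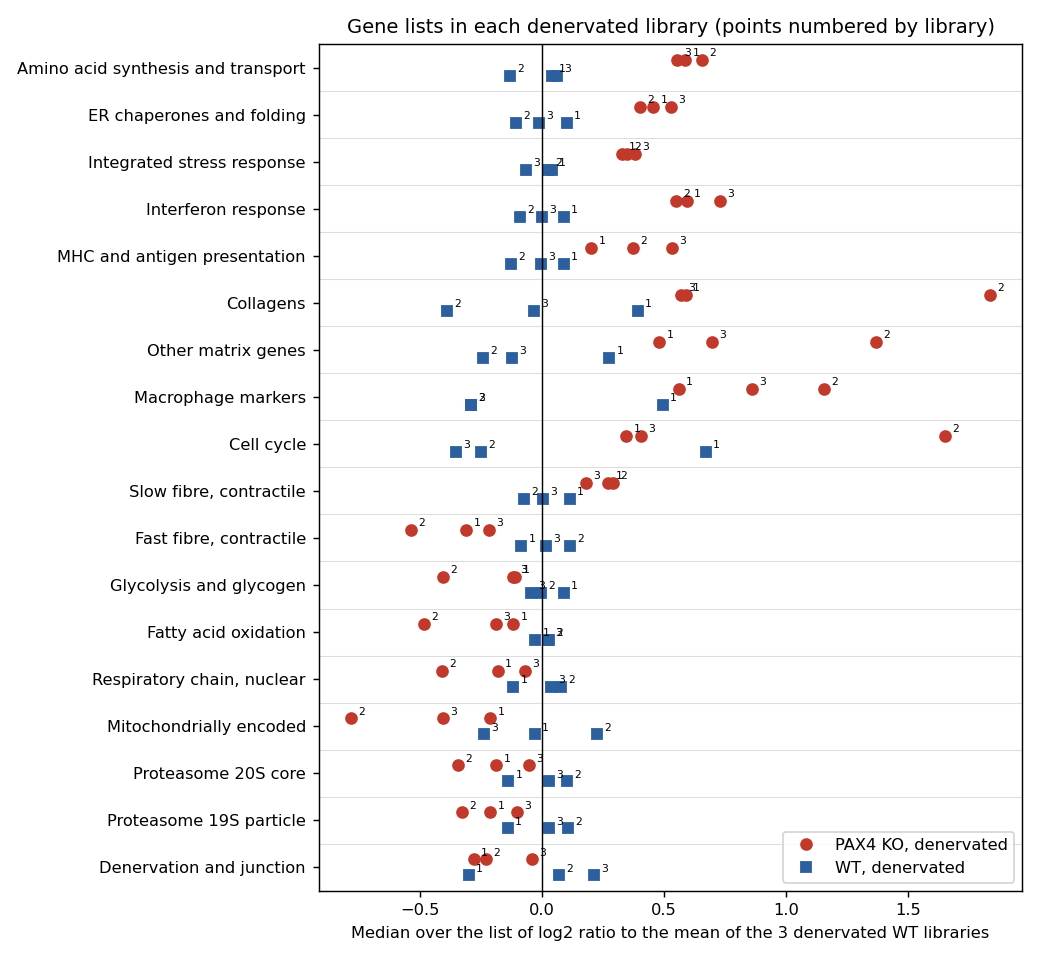
Median over each of 18 gene lists (rows) of log2(CPM + 0.5) relative to its mean over the 3 denervated WT libraries, for each PAX4 KO library (circles, upper line of a row) and each denervated WT library (squares, lower line), numbered by library. For amino acid supply, ER folding, the integrated stress response and interferon genes the 3 circles sit close together and right of all squares; for collagens PAX4 KO library 2 stands far right, for macrophage genes WT library 1 lies just left of the circles, and for cell cycle genes it lies among them.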

How the data were processed

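Per the labels' protocols, RNA was extracted with TRIzol, and 1 ug of total RNA per library went into the SMARTER mRNA-Seq kit. The submitters' processing notes name the genome builds GRCm38 and mm10. Which aligner and which counting tool made the counts, and whether by strand, is not given in the sources used here, so reads of antisense or near-identical genes may be shared. Raw counts per gene of 9 libraries were deposited by the authors. A deposited comparison table, which names this contrast denervated against knockdown, holds the authors' log2 fold changes and p-values. Deposited gene positions equal those of GENCODE vM21 for 98.3% of genes. Columns were tied to groups by name, and libraries are numbered 1 to 3 within a group by ascending column number.

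The test was edgeR's quasi-likelihood F test (edgeR 4.0.16 under R 4.3.3) after filterByExpr and TMM scaling, with all 9 libraries in 1 fit of 3 groups (6 residual degrees of freedom), after a check on simulated data. Column names give the denervated and the innervated WT libraries the same numbers, so they may be pairs from 1 animal, but the fit takes them as independent. The fit of the 6 denervated libraries alone is free of this. Of the 9 columns only that of denervated WT library 1 has a suffix after its number, and no label explains it. Adjusted p (Benjamini-Hochberg over all genes tested) and log2 fold changes are from the fit of all 9 libraries unless another tool or fit is named. The fit gives no SE, so each SE was derived as the absolute log2 fold change divided by the square root of the F statistic. Values of 1 library are CPM at TMM-scaled library sizes. Single values per library were compared by exact permutation. Alternatives were DESeq2 1.42.0, limma-voom (limma 3.58.1), DESeq2 size factors, other filters, a fold change threshold, only the 6 denervated libraries, and each library left out. No pair of libraries of a group was close enough to be 1 library deposited again (chi-square divided by its degrees of freedom was 21.8 to 84.4).

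The members and gene lists were chosen with earlier results of these data known. Named by rule were called genes, Pax4 and Nrf1, the ligase genes Trim63, Fbxo32 and Nedd4, Psmc2 and Vcp, the 10 highest and 10 lowest log2 fold changes among genes of at least 8 CPM with unadjusted p under 0.01 and no overlap (no provisional symbols), up to 2 members in each direction per list by p (mostly left out where the log2 fold change was near 0), and neighbours of Esr1. Gdf15, Atf4, Ddit3, Asns, Hspa5, Pdia4, Ifit1, Ifit3, Col12a1, Igfbp4, Greb1, Gadd45a, Cdkn1a and Myh4 were chosen after their values were seen. Promoter sequences are from RefSeq, with the 250 bases before each gene's start used. Of the list members with a match, those with the smallest unadjusted p in these data were printed.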

Additional observations from a re-analysis of the deposited data

How the results depend on the processing

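Counts of called genes (3 higher and 0 lower by edgeR) depended on the tool and on which libraries were in the fit. They were 140 and 73 by DESeq2, 5 and 0 by limma-voom, and 348 and 108 with no filter on low counts. With each denervated library left out in turn they ran from 1 to 16 higher and from 0 to 10 lower, highest without WT library 1 in both. Chosen after seeing the data, the fit without WT library 1 and innervated library 2 gave 105 and 64, the denervated libraries alone without WT library 1 gave 77 and 33, and DESeq2 on the 6 denervated libraries gave 224 and 87. DESeq2 size factors, a minimum of 5 CPM, only the 6 denervated libraries, a fit without innervated library 2 and a log2 fold change of at least 1 gave 2 to 4 higher and 0 lower. Esr1 was called in every fit. With single libraries left out, log2 fold changes ran from -0.20 to 0.028 for Nrf1 (above 0 without WT library 3), from -0.12 to 0.031 for Xbp1 (above 0 without WT library 2), from -0.49 to 1.62 for Fmod (below 0 without PAX4 KO library 2) and from -0.0031 to 0.61 for Dok7 (below 0 without PAX4 KO library 3), and none of these 4 genes was called. Differences in marker sums, PAX4 KO minus WT, ran from -40.7 to 14.6 CPM for neutrophils (above 0 without WT library 2) and from -24.3 to 71.3 CPM for endothelial cells (below 0 without PAX4 KO library 1 or, with -24.1 CPM, WT library 2). That sum for tendon markers without Thbs4 ran from -5.81 (without PAX4 KO library 2) to 89.6 CPM. The cause was not tested. With 3 libraries a group, an exact permutation test cannot go below p = 0.1. No paired analysis was possible because the columns of the compared groups carry no shared replicate numbers.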

Other observations

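Over 16 genes of insulin-like growth factor signalling the median was 0.09 (log2 fold change). Without PAX4 KO library 2 it was 0.00, and without PAX4 KO library 3 it was -0.03. Igf1, the growth factor itself, had 32.6, 109 and 30.4 CPM in PAX4 KO libraries and 31.2, 19.1 and 16.4 CPM in denervated WT libraries (1.37, adjusted p = 0.301, and 0.50 without PAX4 KO library 2). Foxo3, a factor that turns on atrophy genes, had 39.2, 49.5 and 37 CPM in PAX4 KO libraries and 32.2, 25.6 and 34.5 CPM in denervated WT libraries (0.44, adjusted p = 0.315), with no overlap. Akt2, a kinase of insulin signalling, had 327, 295 and 443 CPM in PAX4 KO libraries and 345, 575 and 587 CPM in denervated WT libraries (-0.50, adjusted p = 0.371), and WT library 1 lay among the PAX4 KO libraries. Foxo4 stood at -0.35 (adjusted p = 0.441, and -0.23 without PAX4 KO library 2).

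Among p53 targets Sesn1, a stress-induced inhibitor of mTOR signalling, had 38, 49.2 and 37.2 CPM in PAX4 KO libraries and 31.8, 24.7 and 26 CPM in denervated WT libraries (0.59, adjusted p = 0.268). Ccng1, a cyclin that p53 induces, had 346, 299.6 and 333 CPM in PAX4 KO libraries and 424, 442 and 396 CPM in denervated WT libraries (-0.37, adjusted p = 0.311). Both separated the groups, in opposite directions. Over the 14 listed p53 targets the median was -0.18, with 6 positive and 8 negative. An unadjusted p under 0.05 was reached by 1 on the higher side and 3 on the lower side. The lower number ran from 1 without PAX4 KO library 3 or WT library 2 to 6 without WT library 1. Of the 14, edgeR called 0 and DESeq2 1 lower. Vcam1, an adhesion molecule of muscle stem cells and vessels, had 16.1, 24.7 and 13.5 CPM in PAX4 KO libraries and 11.4, 8.48 and 9.95 CPM in denervated WT libraries (0.86, adjusted p = 0.264, and 0.57 without PAX4 KO library 2), also with no overlap. In its list of 10 satellite cell and myogenic genes Vcam1 alone was positive, and the other 9 were negative. The median of that list was -0.35, from -0.52 without WT library 1 to -0.03 without WT library 3. The monocyte chemokine gene Ccl8 had 17.3, 50.1 and 52.6 CPM in PAX4 KO libraries and 25, 9.4 and 5.76 CPM in denervated WT libraries (1.57, adjusted p = 0.369, and 2.40 without WT library 1), and Cxcl12, a chemokine of stromal cells, had 166, 142 and 217 CPM in PAX4 KO libraries and 154, 107 and 134 CPM in denervated WT libraries (0.41, adjusted p = 0.372, and 0.22 without PAX4 KO library 3). Over 75 genes of the cytosolic ribosome the median was -0.10, from -0.21 without WT library 1 to -0.01 without WT library 3.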
